A study of Danio rerio with 12 samples.

Results

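The effect of maize in the diet on the female zebrafish liver was read from 6 of the 12 liver RNA pools of a feeding trial, 3 from females fed a diet with 25% maize (replicates 2, 3 and 4) and 3 from females fed the diet with 0% maize (replicates 1, 2 and 3). The pools were chosen by the sex, the diet and the replicate number in the labels of each array. All fish were adult wild type animals of the AB strain, fed the experimental diets for 28 days with a daily supplement of live Artemia nauplii, and maize replaced wheat in the 25% diet. Age in months is not given in the sources used here. Livers were pooled by sex and replicate, each replicate holding 10 females and 10 males, so that a pool averages over fish and the pools of a diet came from separate replicates. The methods name 4 replicates per diet and the array labels name 3 pools for each sex and diet.

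The RNA was hybridised to two-colour Agilent arrays in a loop of 12 arrays, in which each pool appears on a pair of arrays, under opposite dyes. In all, 11 of the 12 arrays held a female pool, and 1 array held both diets in females (25% replicate 4 against 0% replicate 1). The other arrays with a female pool paired it with a male pool of the other diet. The diet effect in females therefore also rests on the male pools that link the arrays, and its unscaled standard error was 1.67 times that of the mean effect of both sexes. The data give ratios and not absolute levels. Levels below are log2 values, set against the mean over all 12 pools. The direction of the deposited ratio is not given in the sources used here. Cy5 over Cy3 is called likely, since all 470 values of the 47 vitellogenin probes on the 10 arrays of both sexes had the sign that it requires, and all directions below rest on it.

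The liver is the main site of detoxification, of fatty acid oxidation and of the synthesis of plasma proteins. In egg-laying females it also makes vitellogenin, the yolk precursor, under the control of oestrogen. Pancreatic tissue lies among the liver lobes of fish, and ovary and gut are their neighbours, so RNA of other organs can enter a dissected liver. Ribosome biogenesis, the assembly of ribosomal subunits in the nucleolus, takes a large part of a cell's synthetic capacity and follows nutrient supply.

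At 25% maize, 64 of 6684 genes were higher in females (0.958%) and 24 were lower (0.359%) at an adjusted p under 0.05 by limma with Benjamini-Hochberg adjustment over all genes. At an unadjusted p under 0.05, 572 genes were higher (8.56%) and 446 lower (6.67%). The higher genes included 12 enzymes of the cytochrome P450 and conjugating families, 4 enzymes of fatty acid oxidation and 4 complement and clotting proteins, and the lower genes included 9 factors of ribosome biogenesis and 4 enzymes of nucleotide metabolism. Changes of the higher genes ran from 0.52 to 2.65 on the log2 scale with a median of 0.90, and those of the lower genes from -0.46 to -1.35 with a median of -0.76. The median change of all genes was -0.02. Of the 12275 probes taken singly, 93 passed (0.758%), with 77 higher (0.627%) and 16 lower (0.13%). The probe of smallest adjusted p by limma (0.00162) fell by 1.77 (SE 0.15). It has no gene symbol and is thus not among the genes. Of the 88 genes, 1.32% of all, 51 were measured by 1 probe, and 31 had no probe that passed on its own.

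In all 64 higher genes the 3 pools at 25% maize lay above the 3 pools at 0%, and in all 24 lower genes they lay below. Over all genes, the pools separated in this way for 11.8% upwards and for 9.95% downwards. The array of both diets in females, which is part of the fit, gave the same sign as the fit for all 88. As the 88 genes were called on these same pools and arrays, the separation and the signs are a description and no separate support. The median SE of a change was 0.16, and the median SD between pools was 0.19 at 0% maize and 0.14 at 25% (n = 3 each).

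The number of genes depended on single pools and arrays. Without female 0% replicate 2 it was 340, of which 80 were among the 88. No gene passed without female 0% replicate 1 or 3, without female 25% replicate 2 or 4, or without male 25% replicate 1 or 3, and 1 passed without male 0% replicate 1. Without male 0% replicate 4 there were 50, of which 41 were among the 88. In the 6 fits with no gene past the threshold by limma, between 253 and 909 of 6684 genes had an unadjusted p under 0.05. With no effect, a share of 0.05 of the genes would be expected. The counts without female 25% replicate 4 (253) and without female 0% replicate 1 (292) were below that share. With all data there were 1018. In the 6 fits, between 62 and 88 of the 88 had such a p, but the 88 were chosen on these same arrays, so this overlap is a description. The loss of a pool removes its 2 arrays and opens the loop. Without the array of both diets in females 2 genes passed, 0 of them among the 88. In that fit 285 genes had an unadjusted p under 0.05, again below a share of 0.05. Without the array of both diets in males 18 passed, 10 of them among the 88. Without female 25% replicate 3 there were 72 genes, 49 of them among the 88. There were 112 (73 among the 88) without male 0% replicate 3 and 91 (60 among the 88) without male 25% replicate 2. These counts moved by less than 1.5 times, but part of the genes changed. All 88 genes kept their direction in every alternative that measured them, and 66 of them were matched under the symbols of the array. The alternatives reuse the arrays on which the 88 were chosen, so the kept direction is a description and no separate support.

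**Figure D1:**
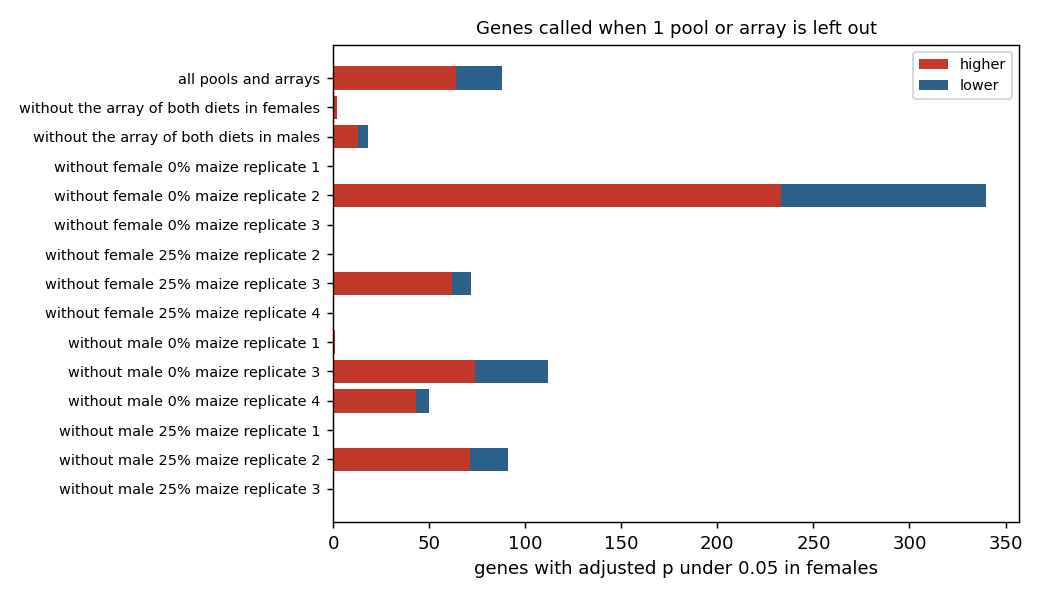
Number of genes higher (red) and lower (blue) in females at 25% maize with an adjusted p under 0.05, for all pools and arrays and with 1 array or 1 pool left out. The count was 88 with all data, 340 without female 0% replicate 2 and 0 without any of 6 other pools.

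Marker genes of other tissues varied among the female pools. Over the 6 pools the mean level of the endocrine pancreas markers spanned 1.75, that of the intestine markers 1.41 and that of the ovary markers 1.32, and within the 0% group the ovary markers spanned 1.32 and the leukocyte markers 1.11. The mean level of 36 ovary and oocyte markers was 1.86, 0.73 and 2.05 in the 0% pools of replicates 1, 2 and 3, and 0.96, 1.39 and 0.93 in the 25% pools of replicates 2, 3 and 4. The 0% pools thus held both the highest levels and the lowest, and the 25% pools lay between. The mean of the 25% pools was 0.45 lower (exact permutation test, two-sided, 3 against 3, p = 0.4, where the smallest possible p is 0.1). All 36 markers had a negative change in the fit (range -0.97 to -0.02, median -0.54) and none passed the threshold. The egg coat gene zpcx, for example, stood at 3.29, 1.38 and 3.76 in the 0% pools and at 1.67, 2.79 and 1.37 in the 25% pools. dazl, a germ cell RNA-binding protein, stood at 1.80, 0.11 and 1.97 against 0.54, 1.91 and 0.97.

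Female 0% replicate 2 also stood apart from its group over all genes and in the leukocyte markers. The distance between pools was taken as the root mean square difference over all genes, the ovary markers included. Its median to the other pools of the same diet was 0.51 for this pool, against 0.32 to 0.41 for the other 5 female pools. The mean of 18 leukocyte markers was 0.61 in this pool and between -0.50 and -0.15 in the others. lcp1, an actin-bundling protein of leukocytes, was at 1.69 there and between -0.98 and -0.36 elsewhere. The mean of 39 cell cycle and DNA replication genes was 0.17 there and 1.18 and 1.28 in the other 0% pools. In the 25% pools of replicates 2, 3 and 4 it was 0.60, 1.07 and 0.56. The female pools thus had the same order in this mean as in the ovary markers, so it is no separate trait of the pool.

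Hepatocyte markers (20 genes, such as transferrin and fibrinogen) had mean levels of -0.87, -0.78 and -0.74 in the 0% pools and of -0.60, -0.61 and -0.56 in the 25% pools, so the pools of the diets did not overlap. Male pools stood between 0.61 and 0.88. fabp10a, the fatty acid binding protein that marks fish hepatocytes, was at -1.0, -1.3 and -0.97 against -0.99, -1.3 and -0.94 and overlapped. The 28 intestine markers averaged -1.22, -1.17 and -0.72 in the 0% pools and 0.19, -0.90 and -0.15 in the 25% pools, with 25 of 28 positive in the fit (range -0.31 to 1.96) and none past the threshold. fabp1b.1, a fatty acid binding protein and one of these markers, was at -1.66, -2.24 and -1.05 against 0.52, -1.65 and 1.82. The exocrine pancreas markers (24 genes) were between -0.93 and -0.64 in 5 female pools and at 0.01 in 25% replicate 4. The endocrine markers (8 genes) were at 0.69 in that pool and between -1.06 and -0.26 in the others, and ins, which encodes insulin, was at 2.21 there and between -2.33 and 0.47 elsewhere.

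**Figure D2:**
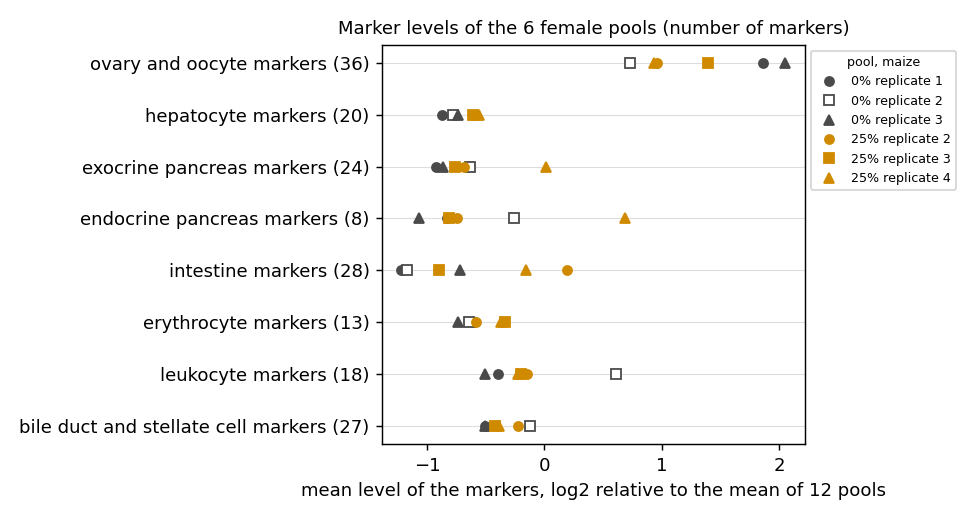
Mean level of the marker genes of 8 tissues and cell types in the 6 female pools, in log2 units set against the mean over all 12 pools (grey, 0% maize, open square for replicate 2, and orange, 25% maize). Ovary markers spanned 0.73 to 2.05 within the 0% group, and 25% replicate 4 stood out for the pancreas markers.

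These scores move with the diets to different degrees, and their part in the changes below was not tested beyond the fits with a score as a covariate. With the ovary score as a covariate 15 genes passed, all of them among the 88. With the intestine score 15 passed, 14 of them among the 88, with the endocrine score 19, all among the 88, and with the exocrine or the hepatocyte score 0. In whole tissue, fewer cells of a type and less RNA per cell cannot be told apart. Against female 0% replicate 2 alone, the 0% pool of lowest ovary score, the mean of the 25% pools was higher by a median of 0.69 for the 64 higher genes (range 0.38 to 2.58) and lower for all 24 lower genes, with a median of -0.69 (range -1.33 to -0.40). As the genes were chosen on a group that includes this pool, these values are a description. In a fit of the solved pool levels without female 0% replicates 1 and 3, 12 genes were higher and 51 lower, 8 of them among the 88. A fit of the arrays without those pools gave 15 genes, none among the 88.

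The largest change was that of slc25a32a, a mitochondrial carrier of the family that moves folate and FAD. Its level was -1.62, -1.42 and -1.44 in the 0% pools of replicates 1, 2 and 3 and 0.94, 0.82 and 1.72 in the 25% pools of replicates 2, 3 and 4. The 0% pools lay close together (-1.49 ± 0.11, SD, n = 3), and the 25% pools were 6.25-fold higher (log2 change 2.65, SE 0.41, adjusted p = 0.0171). The related carrier slc25a36a, known in man as a transporter of pyrimidine nucleotides, stood at -1.25, -0.71 and -1.09 at 0% maize and at 0.59, 0.31 and 0.79 at 25% (3.10-fold, SE 0.20 on the log2 scale, adjusted p = 0.0118). LOC100216314, a gene with no further name here, changed by 1.84. Its 0% pools had an SD of 0.01 (n = 3), while 25% replicate 3 was lower than the other 25% pools, at -1.66 against -0.42 and -0.56.

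Among the other genes of largest increase, rbp2b, a cellular retinol-binding protein, rose by 1.58, ndrg1a, a stress-induced gene, by 1.53, and cldn2, a tight junction protein, by 1.38 with all 3 probes past the threshold. cldn2 stood at -1.03, -0.54 and -1.27 in the 0% pools and at 0.07, 0.42 and 0.62 in the 25% pools. cbln13 of the cerebellin family rose by 1.33 and slc26a3.2, of a family of anion exchangers, by 1.26. In cldn2, cbln13 and slc26a3.2, though not in rbp2b and ndrg1a, replicate 2 was the 0% pool nearest to the 25% pools.

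**Figure D3:**
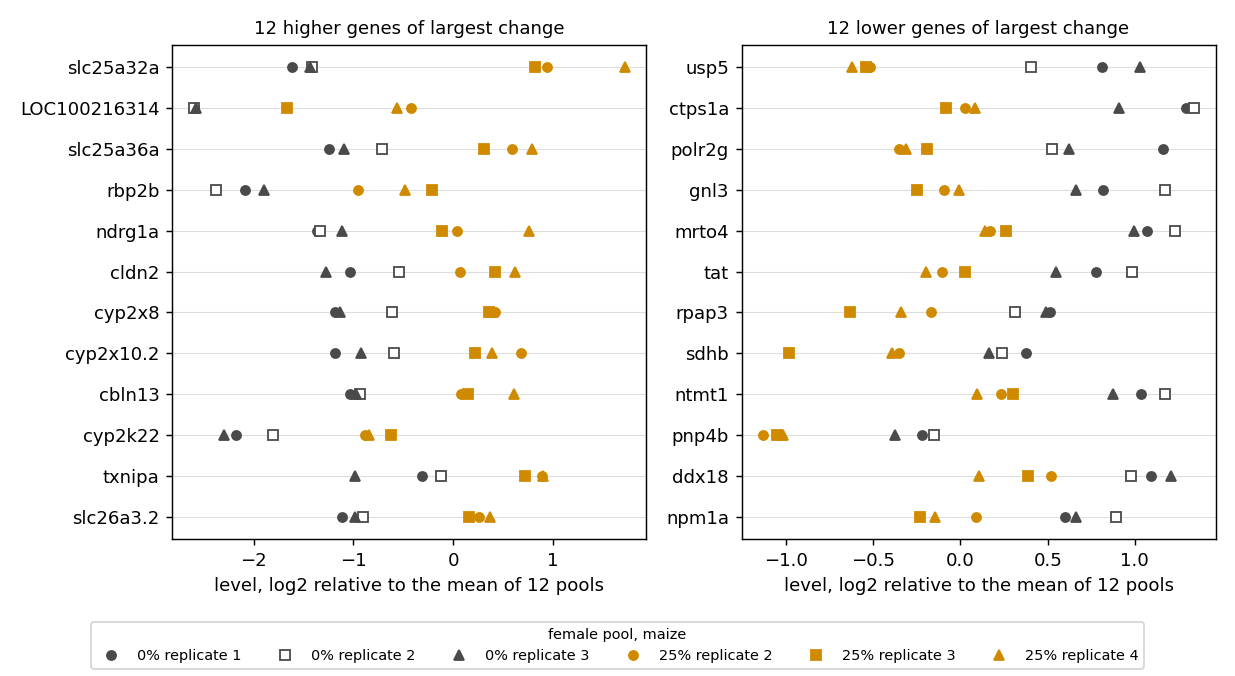
Levels of the 12 higher and the 12 lower genes of largest change in each female pool, in log2 units set against the mean over all 12 pools (grey, 0% maize, open square for replicate 2, and orange, 25% maize). The groups do not overlap in any of the 24 genes, which was part of the rule that chose them. slc25a32a shows the widest gap and rbp2b and cyp2k22 lie low in all female pools.

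Of the 72 measured enzymes of the cytochrome P450 and conjugating families, which oxidise foreign and endogenous compounds and attach polar groups to them, 12 rose and 0 fell. The median change of the list was 0.36, against -0.02 for all genes, and 59 of 72 were positive. For this list and those below, the shares over all genes were 0.958% higher and 0.359% lower. The lists were chosen with earlier results of these data known, so their counts beside such shares are a description. Of all 6684 genes, 3155 were positive and 3529 negative. The 12 comprised 7 P450 genes of family 2 (cyp2x8, cyp2x9, cyp2x10.2, cyp2k22, cyp2p9, cyp2u1 and cyp2y3), the sulfotransferases sult3st3 and sult3st4, the glutathione transferase gstt1b, the glucuronosyltransferase ugt1b5 and ephx1, the microsomal epoxide hydrolase. Whether the probes separate near-identical members, such as those of cyp2x and sult3, was not tested.

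cyp2x8 was at -1.18, -0.61 and -1.14 in the 0% pools and at 0.42, 0.36 and 0.40 in the 25% pools, a 2.54-fold difference (log2 1.34, SE 0.24, adjusted p = 0.0359). gstt1b was at -1.38, -1.33 and -1.41 against -0.31, -0.30 and 0.19 (2.35-fold, SE 0.16 on the log2 scale, adjusted p = 0.0129). The 0% pools of gstt1b were alike, whereas in cyp2x8 replicate 2 lay nearer to the 25% pools. cyp2k22 rose by 1.32 (SE 0.19, adjusted p = 0.0166), with its 3 probes between 0.69 and 1.71. Without female 0% replicate 2, 19 genes of the list passed. Without female 0% replicates 1 and 3, the pools of high ovary score, 1 female 0% pool is left. The median of the list was then 0.19 in either fit, with 43 of 72 positive in the fit of the pool levels and 50 in that of the arrays. The median of all genes was 0.08 in the fit of the pool levels and 0.07 in the fit of the arrays. With the ovary score as a covariate 1 gene of the list passed, and with the intestine score 1.

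Fatty acid oxidation and ketone body genes numbered 33, of which 4 rose, 0 fell and 30 were positive (median 0.28). The called genes were etfdh, which passes electrons of the oxidation to the respiratory chain, acaa2, the mitochondrial thiolase, ehhadh, the peroxisomal bifunctional enzyme, and eci1, an isomerase of unsaturated acyl chains. etfdh stood at -1.07, -0.71 and -1.01 in the 0% pools and at -0.08, -0.02 and 0.38 in the 25% pools (2.1-fold, SE 0.17 on the log2 scale, adjusted p = 0.0197). acaa2 rose by 0.68 (SE 0.10, adjusted p = 0.0171), with 4 probes between 0.37 and 1.14. The mean level of the list was -0.53, -0.33 and -0.47 at 0% maize and -0.13, -0.09 and -0.09 at 25%, without overlap. Outside the list, ech1, a dienoyl-CoA isomerase of the same pathway, was at -0.77, -0.74 and -0.73 against 0.01, 0.14 and 0.33 (log2 0.91, SE 0.11, adjusted p = 0.0118). It is named after its values were seen, as are lonp2, the peroxisomal Lon protease (0.95), and hacd2, a dehydratase of fatty acid elongation (0.61), which rose too. With female 0% replicates 1 and 3 left out, 27 of the 33 were positive in the fit of the pool levels (median 0.19, all genes 0.08). In the fit of the arrays 28 were positive (median 0.28, all genes 0.07). With the ovary score as a covariate 1 gene of the list passed, and with the intestine score 0.

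Plasma, complement and clotting proteins, which hepatocytes secrete, had 4 of 64 genes higher, 0 lower and a median of 0.28 with 53 positive. vtna, a vitronectin, rose 2.27-fold (-0.96, -0.97 and -0.89 against -0.01, 0.21 and 0.45, SE 0.15 on the log2 scale, adjusted p = 0.0118). c8a, a component of the membrane attack complex, rose by 0.83, f7l, a relative of clotting factor VII, by 0.89, and cfhl3, of the complement factor H family, by 1.06. Of the 64 genes, 15 are also among the 20 hepatocyte markers, whose mean level did not overlap between the diets. Taken singly, 5 of the 20 separated upwards and 0 downwards, where 11.8% and 9.95% of all genes did. The 4 called genes are among the 49 of the list that are not hepatocyte markers. These 49 had a median of 0.38 with 43 positive. The median of the list depended on which pools linked the diets, from 0.12 without female 25% replicate 4 to 0.42 without male 25% replicate 3. It was 0.12 without the array of both diets in females, where 39 of 64 were positive and none passed. Without female 0% replicates 1 and 3, 1 female 0% pool is left. The median of the list was then 0.11 in the fit of the pool levels, where all genes had 0.08, and 41 of 64 were positive. In the fit of the arrays it was 0.01, below the 0.07 of all genes, and 33 of 64 were positive. With the ovary score as a covariate 1 gene of the list was higher, and with the intestine score 2.

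Of the 30 genes that package and carry lipids, only apobb.1, which encodes an apolipoprotein B, passed. It stood at -1.84, -1.44 and -1.59 in the 0% pools and at -0.56, -0.62 and -0.44 in the 25% pools (2.13-fold, SE 0.14 on the log2 scale, adjusted p = 0.0118), and both of its probes passed. The median of the list was 0.34 with 23 positive. Several genes with larger estimates did not pass, such as apoea at 2.25 and apoa1a, the main apolipoprotein of high density lipoprotein, at 1.34 (SE 0.30, adjusted p = 0.0611). Of the 30 genes, 7 are also intestine markers, apoa1a, fabp1b.1 and apoa4b.2 among them, 2 are exocrine pancreas markers and 2 are hepatocyte markers. The 23 genes that are not intestine markers, apobb.1 included, had a median of 0.18 with 17 positive. The median of the whole list was 0.15 without female 25% replicate 4 and 0.49 without male 25% replicate 2.

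Glycogen and glucose output genes (30 measured, median 0.21) had 2 higher, gpd1b, a glycerol-3-phosphate dehydrogenase (0.74, SE 0.15, adjusted p = 0.0411), and pgm1, the phosphoglucomutase that links glycogen to glucose-6-phosphate (0.70, SE 0.15, adjusted p = 0.0495). ppp1r3ca, a glycogen-targeting phosphatase subunit, had an estimate of 1.22 (adjusted p = 0.0559). Of 47 fasting, growth and stress regulators (median 0.16), 3 rose and 0 fell. Besides ndrg1a these were txnipa, the inhibitor of thioredoxin that follows cellular glucose (-0.32, -0.12 and -0.98 against 0.89, 0.73 and 0.90, log2 1.28, adjusted p = 0.0255), and tsc22d3, a leucine zipper protein induced by glucocorticoids (1.01, SE 0.19, adjusted p = 0.0359). The 3 probes of tsc22d3 disagreed, from 0.06 to 1.59, and 2 passed. Over the regulators the median was near 0 without the array of both diets in males (0.001, 24 of 47 positive), without male 0% replicate 1 (-0.008) and without male 25% replicate 3 (-0.012), was 0.06 without female 0% replicate 3, and was 0.43 without female 25% replicate 4, 0.42 without the array of both diets in females, 0.41 without female 0% replicate 1 and 0.29 without female 0% replicate 2. For the glycogen and glucose output list it ran from 0.16 without male 0% replicate 1 to 0.37 without female 25% replicate 4.

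Among 55 genes of amino acid breakdown (median 0.10), bckdk, the kinase that switches off the oxidation of branched-chain amino acids, rose 2.22-fold, and gstz1, of tyrosine breakdown, rose by 0.62. tat, tyrosine aminotransferase at the first step of the same pathway, fell by 0.87 (0.78, 0.98 and 0.55 against -0.10, 0.03 and -0.20, SE 0.15, adjusted p = 0.0336), with 5 probes between -1.35 and -0.53. For the amino acid list the median ran from -0.01 without male 0% replicate 1 to 0.18 without female 0% replicate 2. Of 37 antioxidant and glutathione genes (median 0.05), catalase (cat, 0.67) and the methionine sulfoxide reductase msrb2 (0.73) rose, and the thioredoxin reductase txnrd3 fell by 0.46. The 3 probes of cat disagreed, from 0.04 to 1.09, and 1 passed. The median of that list ran from 0.02 without male 25% replicate 2 to 0.26 without the array of both diets in males. Further higher genes chosen after their values were seen were bco2l, a carotenoid oxygenase (1.09), dhrs4, a short-chain dehydrogenase (0.99), retsat.2, a retinol saturase (0.97), and foxa1, a transcription factor of the liver (0.99).

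Ribosome biogenesis factors held the largest group of lower genes among the lists. Of 100 measured, 9 fell, 0 rose, 95 were negative and 63 were lower at an unadjusted p under 0.05, against 6.67% of all genes. The median change was -0.38. The mean level of the list was 0.65, 0.52 and 0.55 in the 0% pools and 0.09, 0.25 and 0.25 in the 25% pools, so that all 25% pools lay below all 0% pools, female 0% replicate 2 included. The called genes were npm1a, the nucleolar protein nucleophosmin, gnl3 and gnl2, nucleolar GTPases, ddx18, an RNA helicase, mrto4, grwd1, nolc1 and lyar, and polr1b, the second-largest subunit of RNA polymerase I.

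npm1a was at 0.60, 0.89 and 0.66 in the 0% pools and at 0.09, -0.23 and -0.14 in the 25% pools (log2 -0.77, SE 0.16, adjusted p = 0.0454). polr1b was at 0.67, 0.75 and 0.73 against 0.09, 0.25 and 0.18 (log2 -0.54, SE 0.10, adjusted p = 0.0377). Female 0% replicate 2 was the highest 0% pool in 5 of the 9 called genes, these included, and the lowest in 3. As the 9 were called on a group that includes this pool, its order among them is a description. In the mean of the whole list it was the lowest 0% pool. gnl3 fell by 0.93, mrto4 by 0.88 and ddx18 by 0.77. Without female 0% replicates 1 and 3, the list's median was -0.32 with 1 gene lower in the fit of the pool levels and -0.33 with none lower in the fit of the arrays. Without female 0% replicate 2, 17 were lower. With the ovary or the intestine score as a covariate 0 passed, with 93 of 100 negative in either fit. Across the alternatives that measured all 100, between 87 and 97 were negative, with medians from -0.41 to -0.32. The alternatives reuse the same arrays, and the list was chosen with earlier results known, so these counts are a description.

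The ribosomal proteins themselves had a median near that of all genes. None of 76 cytosolic ribosomal protein genes passed, with 58 positive and a median of 0.08, nor did any of 63 mitochondrial ribosomal protein genes (median -0.10, 49 negative) or of 84 translation factors, their regulators and aminoacyl-tRNA synthetases (median -0.13, 58 negative). The methionyl- and glutaminyl-tRNA synthetases mars1 and qars1 had estimates of -0.78 and -0.71 (adjusted p = 0.0704 and 0.0645). larp1, a regulator of the translation of ribosomal protein messages that is in none of these lists, fell by 0.68 (0.84, 0.77 and 0.71 against -0.05, 0.14 and 0.17, SE 0.10, adjusted p = 0.0171). Mitochondrial import genes of the timm and tomm families had a median of -0.24 with 14 of 18 negative and none past the threshold.

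Purine and pyrimidine metabolism had 4 lower genes and 1 higher among 47, with a median of -0.02, as for all genes, and of -0.15 without female 25% replicate 3. ctps1a, the CTP synthase, was at 1.29, 1.34 and 0.91 in the 0% pools and at 0.03, -0.08 and 0.08 in the 25% pools (log2 -1.16, SE 0.17, adjusted p = 0.0166, both probes past the threshold). The other lower genes were pnp4b, a purine nucleoside phosphorylase (-0.77), adkb, adenosine kinase (-0.74), and prps1a, which makes the ribose donor of nucleotide synthesis (-0.64). The 2 probes of adkb gave -1.15 and -0.34, and 0 passed on their own. The probes of prps1a differed too, as a probe that passed on its own gave -0.99, beyond their mean. nt5c2a, a nucleotidase that breaks purine nucleotides down, rose by 1.03. The list thus held members that moved in opposite directions.

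The lower genes outside these groups were led by usp5, a deubiquitinase that takes apart free ubiquitin chains, at 0.81, 0.41 and 1.03 in the 0% pools and -0.52, -0.54 and -0.62 in the 25% pools (2.55-fold lower, SE 0.19 on the log2 scale, adjusted p = 0.0166). polr2g, a subunit of RNA polymerase II, fell by 1.06 and rpap3, a co-chaperone in the assembly of that polymerase, by 0.80. sdhb, the iron-sulfur subunit of succinate dehydrogenase, was the only one of 78 respiratory chain and ATP synthase genes to pass (-0.80, adjusted p = 0.0467), but its 2 probes gave -1.52 and -0.09, and the median of that list was 0.14.

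**Figure D4:**
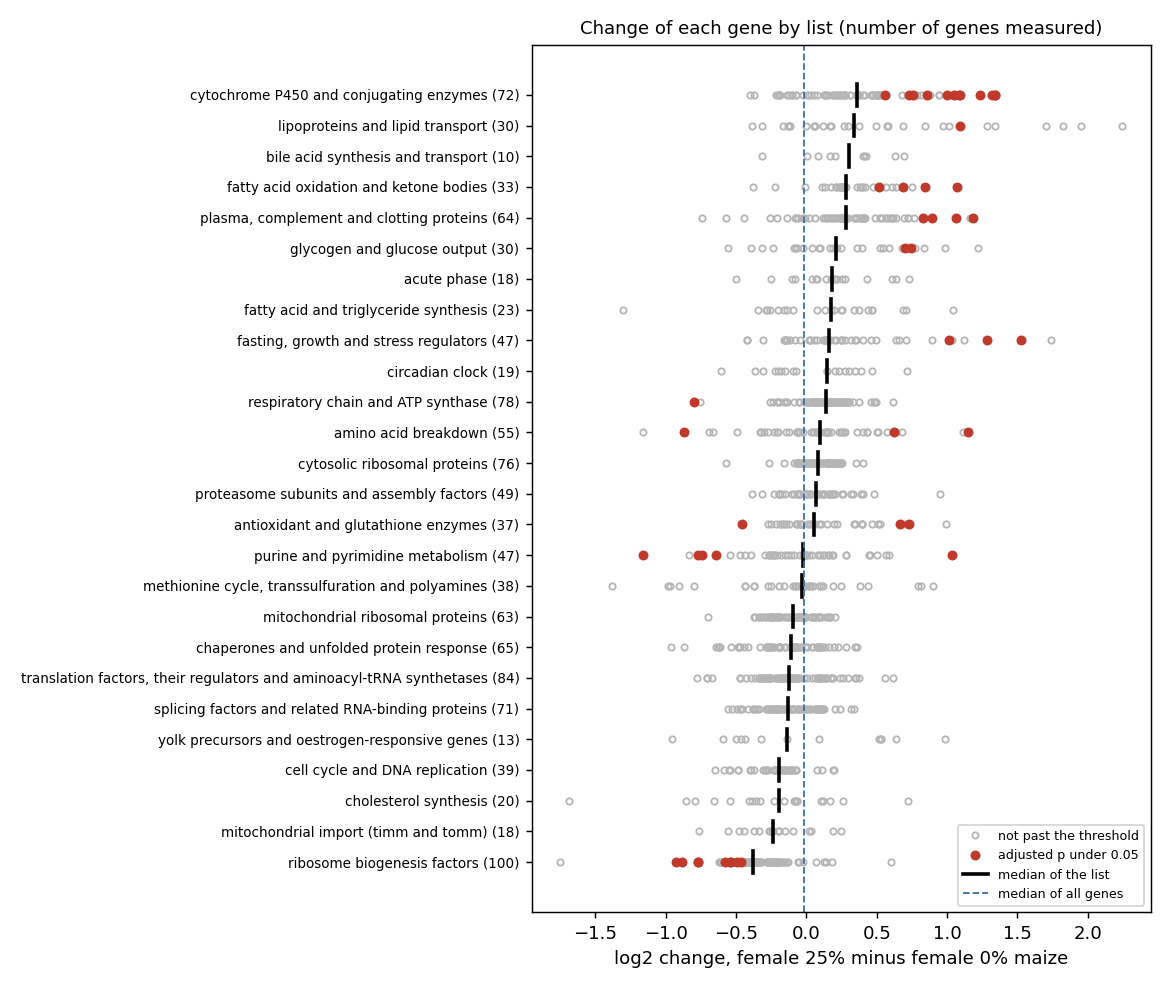
Log2 change of each measured gene in females (25% minus 0% maize) for 26 gene lists, with called genes in red, list medians as black bars and the median of all genes as a dashed line. Medians ran from -0.38 for ribosome biogenesis factors to 0.36 for cytochrome P450 and conjugating enzymes.

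The same contrast in males called 2 genes (0.0299%), with 725 at an unadjusted p under 0.05. A direct test of the difference between the sexes called 0 genes by limma (0%), with 598 at an unadjusted p under 0.05 and a smallest adjusted p of 0.107, so that no change can be called particular to females. Of the 64 higher genes, 40 were positive in males, with a median of 0.08, and of the 24 lower genes, 18 were negative, with a median of -0.29. Most arrays pair a female pool with a male pool of the other diet, so errors of the female and male estimates are negatively correlated. Unscaled standard errors were 1.72 in each sex, 2.75 for the difference and 1.03 for the mean. In genes chosen for a large female change, error alone thus moves the male estimate the other way. To what degree was not tested. Of the 88 genes, 63 were also called for the mean of both sexes, where 330 genes passed (4.94%). The female and the mean effect share the female pools.

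slc25a32a (1.5 in males, difference 1.14, SE 0.65), txnipa (1.02) and ctps1a (-0.77) had male estimates in the female direction. The smallest adjusted p of the difference was that of cyp2k22, with 1.32 in females and -0.92 in males (difference 2.24, SE 0.31). gpd1b (0.74 and -0.69, adjusted p of the difference 0.123) and usp5 (-1.35 and 0.55, adjusted p of the difference 0.123) also had opposite signs. The median of the P450 and conjugating list was -0.13 in males, that of fatty acid oxidation 0.00, that of plasma proteins -0.02 and that of ribosome biogenesis factors -0.21, and none of their genes passed for the difference. Some marker lists had medians of opposite sign in females and males. These were 0.65 and -0.64 for intestine, 0.40 and -0.17 for exocrine pancreas, -0.54 and 0.32 for ovary and 0.22 and -0.08 for hepatocyte. The other marker lists had the same sign in both sexes. The parts of other tissue and of the negatively correlated errors in these opposite signs were not tested.

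**Figure D5:**
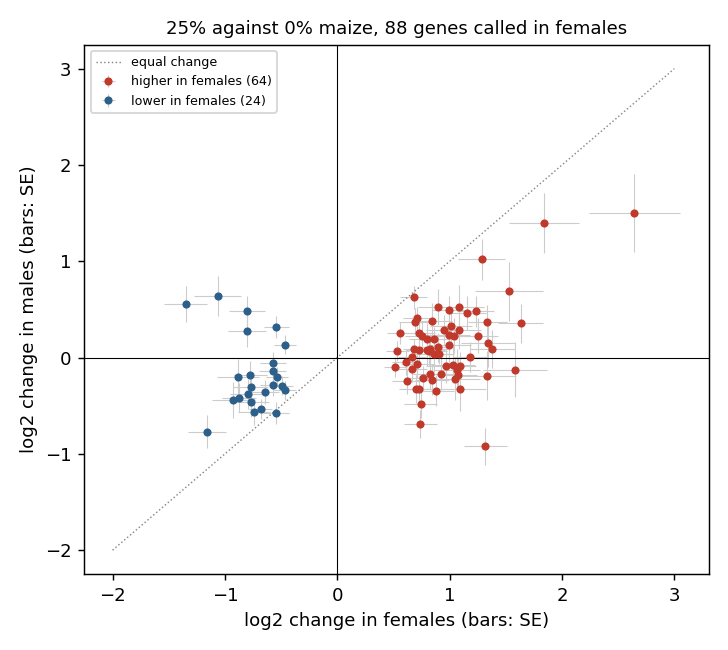
Log2 change with 25% maize in females (x axis) and males (y axis) for the 88 genes called in females, with bars for the SE. The 64 higher genes scatter around 0 in males, with 40 positive, and 18 of the 24 lower genes were negative in males. Both estimates come from one fit, their errors are negatively correlated, and the genes were chosen on the female values.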

How the data were processed

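The values used are those the authors deposited, 1 log ratio (read as log2) for each of 12275 probes on each of 12 arrays, made after scanning with GenePix Pro for the spots and limma for the statistics. Base 2 follows limma's convention. The background correction, the normalization, the probe filter, the base and the direction are not stated in any source used here. The medians of the arrays were between -0.05 and 0.04. Precision is limited by the number of pools as well as by that of arrays, as pools varied 2.91 times as much as arrays.

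A single symbol in the platform annotation was found for 10307 probes and updated with RefSeq's GRCz12tu gene table (9007 through an accession, 976 through the symbol, 317 through a synonym, 7 left as they were). Genes are means of their probes. The 1968 probes with no symbol enter the probe results only. Neither coordinates nor sequences are printed.

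The model held the 4 groups of sex and diet and a dye term. It was fitted to all arrays (limma 3.58.1, R 4.3.3) with arrays that share a pool correlated, pools varying 2.91 times as much as arrays by restricted maximum likelihood, and left 8 residual degrees of freedom. Benjamini-Hochberg adjustment ran over all probes or all genes, at a threshold of 0.05. The closed loop was solved for pool levels. The female contrast, in the main fit and with arrays taken as independent, and the solving of pool levels were tested on simulated data. These were drawn from the same model, and the other steps were not simulated. Lists are given as counts and medians without a set test, and the labels give no batch. P-values measure the spread between these pools.

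The text names the 12 higher and 12 lower genes of largest change, up to 3 genes per list by smallest p, and the markers of widest range. The pools, genes and 34 lists were chosen with earlier results of these data known. Alternatives changed the treatment of pools, dye, scaling, probes, threshold and tissue scores, and left out pools or arrays. Matplotlib 3.10.9 drew the figures.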

Additional observations from a re-analysis of the deposited data

How the results depend on the processing

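Against 88 genes and 93 probes, arrays taken as independent gave 54 genes, the 6 female pools alone 2 genes and 0 probes, and the 12 solved pools 162 genes and 194 probes. No dye term gave 44 genes and centring each array on its median 58. Scaling the arrays to one spread gave 673 genes and 1156 probes, of which 48 genes were among the 88, and turned acaca to 0.20 and cry3a to -0.14. A threshold of 0.10 gave 221 genes and 303 probes. Array weights could not be fitted. Female replicates 2 and 3 are numbered alike in both diets, but the numbers are not known to pair pools (correlations of their deviations 0.21 and 0.27). With the replicate number as a block, 1 gene and 2 probes passed, the gene not among the 88, and 4 genes passed for the difference between the sexes. With a marker score as a covariate, genes and probes that passed numbered 15 and 15 (ovary), 15 and 24 (intestine) and 0 and 1 (exocrine pancreas), and, for scores added after the data were seen, 0 and 0 (hepatocyte) and 19 and 27 (endocrine pancreas). The hepatocyte score turned c3a.1 to -0.005.

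Without the array of both diets in females, 2 genes and 0 probes passed, c3a.1 turned to -0.088 and fga to -0.12, and without that in males 18 genes and 15 probes passed. Leaving out each pool in turn gave 0 to 340 genes and 0 to 527 probes, a change of -0.093 to 1.14 for c3a.1 and of -0.13 to 0.63 for fga. The fits without female 0% replicates 1 and 3 were added after the data were seen. Solved pools then gave 63 genes and 89 probes, and turned mcm4 to 0.087, ccna2 to 0.29, ube2c to 0.28 and socs3a to -0.23. Arrays gave 15 genes and 20 probes, and turned ccna2 to 0.17, cry3a to -0.011, c3a.1 to -0.12, socs3a to -0.44, fga to -0.054 and vtg3 to 0.13. None of the genes that turned was past the threshold, and the causes were not tested. The 46 named genes that passed kept their direction in all 1600 values from the alternatives, 929 of which were no longer past the threshold. These genes were chosen on the arrays that the alternatives reuse, so the kept direction is a description. Of 1735 values of the 50 named genes that did not pass, 76 passed under an alternative and 19 turned.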

Other observations

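Genes of the oestrogen response did not move one way. The 6 vitellogenins had estimates between -0.96 (vtg3) and -0.32 (vtg5), none past the threshold. vtg3 stood at 3.24, 2.6 and 3.19 in the 0% pools and at 1.80, 1.73 and 2.29 in the 25% pools, without overlap, and vtg2 at 3.12, 2.70 and 3.04 against 2.36, 2.31 and 2.24. The oestrogen receptor esr1 had the opposite sign (0.69, 0.59 and 0.59 against 1.4, 1.01 and 1.08, log2 change 0.53, adjusted p = 0.0716 by limma), as had shbg, the sex hormone binding globulin (0.64, adjusted p = 0.114). The 3 probes of esr1 ranged from 0.13 to 1.24.

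In lists with no gene past the threshold, single estimates were large. stard4, a cholesterol transporter, was at 0.69, 0.08 and 0.80 in the 0% pools and at -1.4, -1.99 and -0.70 in the 25% pools (log2 change -1.69, adjusted p = 0.159), with 15 of 20 cholesterol synthesis genes negative (median -0.20). acaca, acetyl-CoA carboxylase of fatty acid synthesis, had -1.31 in females (adjusted p = 0.143) and -2.16 in males. Of 65 chaperone and unfolded protein response genes, 46 were negative (median -0.11), among them hspa5, the main chaperone of the endoplasmic reticulum (-0.87, adjusted p = 0.181), and xbp1, a regulator of that response (-0.97, adjusted p = 0.129). In 9 of 10 genes of bile acid synthesis and transport the estimate was positive (median 0.30). The clock genes showed no common sign, with 10 of 19 positive.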
